A study of Danio rerio with 2 samples.

Results

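Fine cluster 9 is a group of 173 cells among 10469 cells sorted for an npas4l reporter from the tails of zebrafish (Danio rerio) embryos, 20 hours after fertilisation (20 hpf). Its members were taken as every cell that carried the fine Leiden cluster number 9 in the deposited per-cell table, a number that the authors' clustering gave from gene expression. The heterozygous library came from embryos of genotype npas4lbns423/+ and the mutant library from embryos of genotype npas4lbns423/bns297, so all embryos carried the bns423 allele. Tails of about 150 embryos were pooled, dissociated and sorted for GFP without DAPI-positive dead cells, and each genotype was loaded on 1 droplet lane of its own. The labels do not say which allele drives GFP or how the embryos were divided between the genotypes. The tables analysed here tie no cell type to the number 9 and no gene values were used, so the cluster is called by its number and npas4l itself was not checked in its cells.

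Npas4l is a transcription factor of the bHLH-PAS family and the product of the zebrafish cloche locus. It acts near the top of the cascade that turns mesoderm into endothelial and blood cells, and embryos without it lack most of both lineages. RNA velocity, which the authors computed, compares unspliced (young) with spliced (mature) transcripts of each gene to infer the direction in which a cell is moving. In such analyses a root cell score is usually high where the inferred movement starts, an end point score where it stops, and pseudotime orders the cells between starts and stops. These scores are inferences from one snapshot, not observed lineages.

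The heterozygous library held 5207 cells with a median of 20744 UMIs (unique molecular identifiers, the counted transcripts) and the mutant library 5262 cells with a median of 14240 UMIs. The libraries shared 5 cell barcodes, none of them in fine cluster 9. With 1 library per genotype there is no replicate and no test was possible. Every interval of a share or median below is an exact 95% interval that covers counting error over cells only. Bounds of ratios and differences were taken from opposite ends of such intervals and are not exact. Clusters were built from the same cells, so values of one cluster beside another are descriptions.

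Most cells of fine cluster 9 came from the mutant library. The mutant library gave 163 of its 173 cells, 94.2% (89.6% to 97.2%), and 50.3% of all cells. In fine clusters 4, 6, 7 and 8, its neighbours, the mutant shares were 90.5% (87.5% to 92.9%), 91.0% (87.4% to 93.9%), 90.0% (86.2% to 93.1%) and 97.8% (95.2% to 99.2%). All 4 intervals overlapped that of fine cluster 9, so a mutant majority was not particular to it. Its 163 mutant cells made up 3.10% of the mutant library (2.65% to 3.60%), and the other 10 made up 0.192% of the heterozygous library (0.0921% to 0.353%). The ratio of the shares was 16.1, with bounds of 7.50 and 39.1 taken from opposite ends of the intervals. By a rule of size (shares at least 2-fold different with intervals apart), fine cluster 9 was larger in the mutant library. So were 60.0% of all fine clusters (9 of 15), so the call does not set it apart. By size of the ratio it was the third of the 15, after fine clusters 14 (66.8) and 8 (43.5). Among cells outside coarse cluster 1, the largest cluster of the heterozygous library, the ratio was 6.84, and outside coarse clusters 1 and 4 it was 3.98. The GFP gate can also set these shares, and its part was not tested.

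Coarse cluster 3 is the parent of fine cluster 9, with 172 of the 173 cells. The remaining cell, from the heterozygous library, was placed in coarse cluster 4, and no cell of the other 14 fine clusters fell outside its main coarse cluster. That cell had the lowest pseudotime of fine cluster 9, 0.392, and its lowest self-transition score, 0.0741. Within coarse cluster 3, fine cluster 9 was the smallest of 5 fine clusters overall. Heterozygous cells of coarse cluster 3 belonged to it in 7.38% of cases (3.43% to 13.5%) and mutant ones in 11.3% (9.68% to 13.0%). These intervals overlapped, so no difference in its place within the parent cluster was detectable with 9 heterozygous cells. The neighbours, fine clusters 4, 6, 7 and 8, held 483, 324, 320 and 270 cells.

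**Figure D1:**
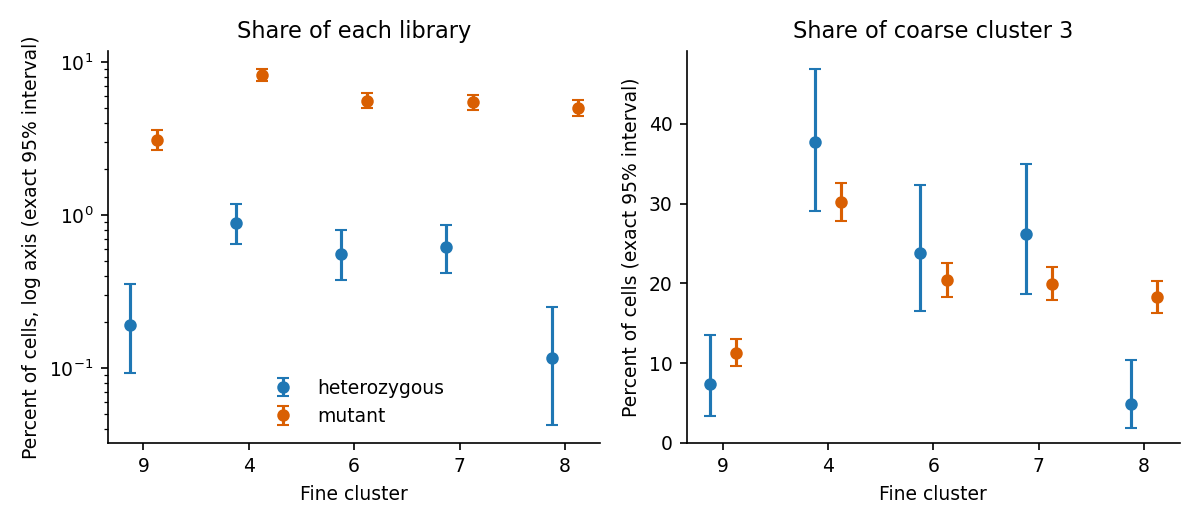
Share of cells in fine clusters 9, 4, 6, 7 and 8, as a percent of each library (left, log axis) and as a percent of coarse cluster 3 (right), with exact 95% intervals as bars; blue is heterozygous and orange is mutant. Fine cluster 9 holds 0.192% and 3.10% of the libraries, with intervals apart, while within coarse cluster 3 its intervals overlap at 7.38% and 11.3%.

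The root cell score set fine cluster 9 furthest apart from its neighbours. Drawing 1 cell from fine cluster 9 and 1 from the 4 neighbours together, the cell of fine cluster 9 scored higher in 96.6% of pairs, and the next highest of the measures was pseudotime with 77.5%. The median root cell score of fine cluster 9 was 0.772 (0.734 to 0.809) on a scale from 0 to 1, and the other 14 fine clusters had medians between 0.00185 and 0.114. Among its neighbours the median was 0.0601 in fine cluster 4, 0.0447 in fine cluster 6, 0.0481 in fine cluster 7 and 0.0260 in fine cluster 8. By neighbour, the cell of fine cluster 9 had the higher score in 91.2% of pairs with fine cluster 4 and in over 99% of pairs with each of the other 3. The scores within fine cluster 9 were not uniform. They ran from 0.0725 to 1, with quartiles of 0.652 and 0.948. A score under 0.5 was given to 33 cells, a score from 0.5 to under 1 to 102 cells and the top score of 1 to 38 cells.

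The heterozygous cells of fine cluster 9 lay at the top of this range. Their 10 scores ran from 0.879 to 1 with a median of 1, and 8 of them were exactly 1. The 163 mutant cells had a median of 0.756 (0.721 to 0.787), a lowest score of 0.0725 and 30 cells at 1, so the libraries overlapped in range. Scores of 0.9 or more were reached by 9 of the 10 heterozygous cells, 90.0% (55.5% to 99.7%), and by 41 of the 163 mutant cells, 25.2% (18.7% to 32.5%). This order was not particular to fine cluster 9. Over all cells outside this cluster, 164 of 5197 heterozygous cells, 3.16% (2.70% to 3.67%), and 43 of 5099 mutant cells, 0.843% (0.611% to 1.13%), reached 0.9. The same order was seen in fine cluster 4, where 9 of 46 heterozygous cells, 19.6% (9.36% to 33.9%), and 10 of 437 mutant cells, 2.29% (1.10% to 4.17%), reached 0.9. In fine cluster 6 no cell of 324 did, which allows a share of up to 0.926%, in fine cluster 8 none of 270 did (up to 1.11%), and in fine cluster 7 a single mutant cell did. These limits pool both libraries. For heterozygous cells alone, the limits were 10.3% in fine cluster 6 (29 cells), 9.38% in fine cluster 7 (32 cells) and 50% in fine cluster 8 (6 cells). The order of the libraries could thus not be judged there. Mitochondrial transcripts, a measure of RNA quality and cell state, differed alongside. Their median was 0.877% in the 10 heterozygous cells, which ran from 0.560% to 1.47%, and 1.55% (1.41% to 1.72%) in the mutant cells. The same order of mitochondrial medians was seen in fine clusters 4 (1.40% and 1.66%), 6 (1.46% and 1.73%) and 7 (1.15% and 1.58%). It was also seen in fine cluster 8 (1.06% in 6 heterozygous cells and 1.72%), so it was not particular to fine cluster 9. The heterozygous median root cell score was not the higher one in fine clusters 6 (0.0430 and 0.0452) and 7 (0.0368 and 0.0484). Nor was it in fine cluster 8 (0.0253 in 6 heterozygous cells and 0.0260). The part of mitochondrial content in the score was not tested. Depth was alike: the heterozygous cells of fine cluster 9 had a median of 17790 UMIs and its mutant cells 17746.

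**Figure D2:**
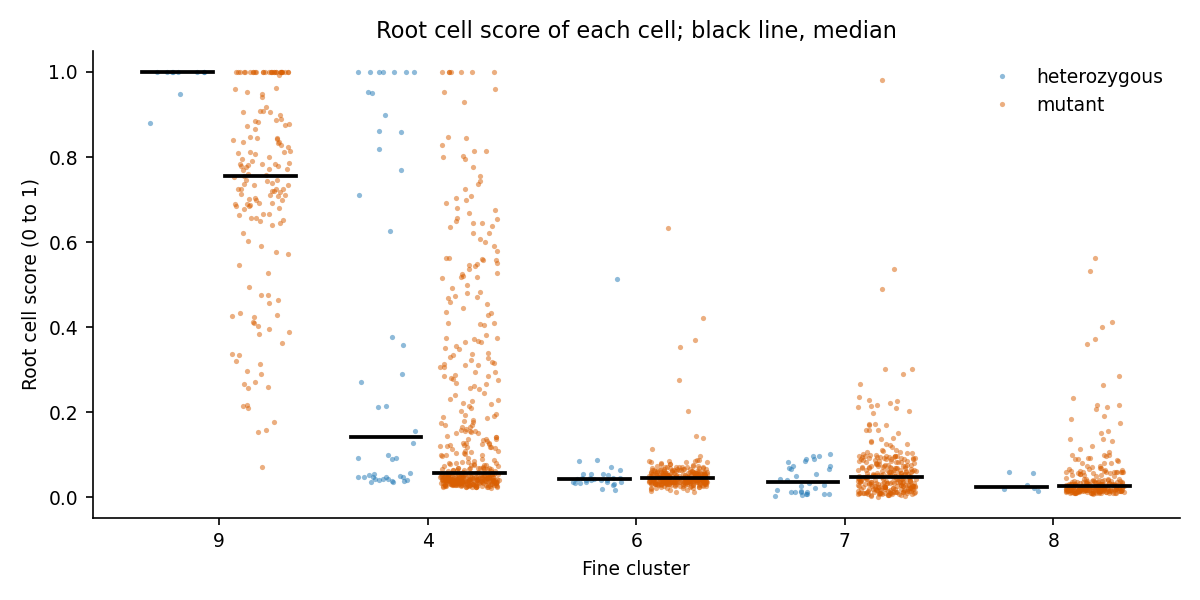
Root cell score of every cell in fine clusters 9, 4, 6, 7 and 8, with blue points for heterozygous and orange for mutant cells and a black line at each median. Fine cluster 9 has medians of 1 (heterozygous, 10 cells) and 0.756 (mutant, 163 cells). Cells of fine cluster 4 spread up to a score of 1, with medians of 0.142 (heterozygous) and 0.0570 (mutant). Fine clusters 6, 7 and 8 stay low apart from a few cells.

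Fine cluster 9 held more of the high root cell scores than its size alone would give in both libraries. Of the 84 mutant cells with a score of 0.9 or more, 41 were in fine cluster 9, 48.8% (37.7% to 60.0%), although the cluster held 3.10% of that library. Of the 173 such heterozygous cells, 9 were in fine cluster 9, 5.20% (2.41% to 9.65%), and the cluster held 0.192% of that library. Within coarse cluster 3 and fine cluster 9 together, fine cluster 9 supplied 50 of 70 such cells over both libraries, and fine cluster 4 supplied 19 of the other 20. At a lower cut of 0.5, fine cluster 9 supplied 140 of 221 cells there, with 75 of the others in fine cluster 4. These pooled counts were mostly mutant cells. By library, fine cluster 9 supplied 41 of 52 mutant and 9 of 18 heterozygous cells at 0.9, and fine cluster 4 also held 9 heterozygous ones. At 0.5 it supplied 130 of 194 mutant and 10 of 27 heterozygous cells, and fine cluster 4 held 16 heterozygous ones.

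The high-scoring cells of fine cluster 4 resembled their own cluster in depth, not fine cluster 9. The 75 cells of fine cluster 4 with a score of 0.5 or more had a median of 12717 UMIs (11054 to 13653) and 2876 genes (2741 to 3095). The other 408 cells of fine cluster 4 had 12811 UMIs (12491 to 13157) and 2820.5 genes (2774 to 2870). Fine cluster 9 had 17746 UMIs (16415 to 18314) and 3615 genes (3515 to 3747). Pseudotime separated them as well, with a median of 0.460 in both groups of fine cluster 4 and 0.474 in fine cluster 9. Unspliced transcripts separated them less clearly. The median of the 75 cells, 8.45% unspliced UMIs (8.06% to 9.34%), overlapped both the 7.92% (7.80% to 8.11%) of the other cells of fine cluster 4 and the 9.58% (9.08% to 10.3%) of fine cluster 9. Mitochondrial UMIs did not separate them, with a median of 1.40% (1.23% to 1.69%) in the 75 cells. This overlapped the 1.68% (1.59% to 1.73%) of the other 408 cells and the 1.49% (1.35% to 1.65%) of fine cluster 9. Heterozygous cells made up 16 of the 75 and 30 of the 408. These groups of cells were formed by score after the data were seen.

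Taken as a cluster, fine cluster 9 had a high root cell score without an early pseudotime. Fine cluster 9 had a median pseudotime of 0.474 (0.472 to 0.475), the sixth highest of the 15 fine clusters, whose other medians ran from 0.0117 to 0.861. Within its parent it lay late, after fine clusters 6 (0.445), 7 (0.458) and 4 (0.460) and before fine cluster 8 (0.483), each with an interval apart from its own. The middle 50% of its cells lay within 0.0106 units, from 0.469 to 0.479. This window held 87 cells of fine cluster 9, 64 of fine cluster 8, 32 of fine cluster 7, 28 of fine cluster 4 and 7 of fine cluster 6. Inside it the median root cell score was 0.772 in fine cluster 9, 0.183 in fine cluster 4, 0.0571 in fine cluster 7, 0.0286 in fine cluster 6 and 0.0214 in fine cluster 8. Cells placed at the same pseudotime thus had different root cell scores by cluster.

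Within fine cluster 9 the cells at the top score lay slightly earlier. The 38 cells with a score of 1 had a median pseudotime of 0.467 (0.463 to 0.471) and the 102 cells from 0.5 to under 1 had 0.476 (0.474 to 0.479). In mutant cells alone these medians were 0.468 (0.463 to 0.472) and 0.476 (0.474 to 0.479). The 33 cells under 0.5, all mutant, had 0.473 (0.471 to 0.478), which overlapped both of these mutant groups. Of the 9 cells with a pseudotime under 0.45, 8 had the top score and 3 were heterozygous, beside 10 of the 173 cells of the cluster. Of these 8, 4 had under 2% unspliced UMIs and 0.199% to 0.382% mitochondrial UMIs, and the part of these 4 cells in the earlier median was not tested. The 9 cells with a pseudotime over 0.5 were all mutant, as was 94.2% of the cluster, and none had the top score. Root cell score and pseudotime come from the same velocity estimate, so neither is independent evidence for the other.

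**Figure D3:**
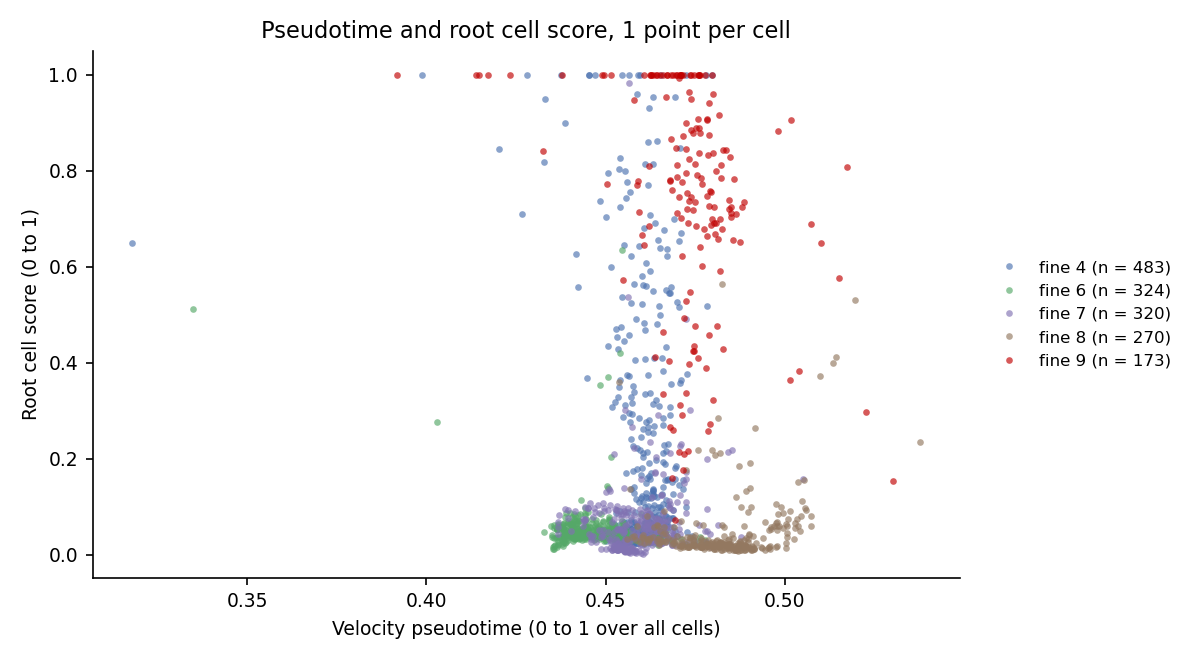
Velocity pseudotime (x axis) against root cell score (y axis), 1 point per cell, for fine clusters 9 (red), 4, 6, 7 and 8. Fine cluster 9 stands as a column of high scores at a median pseudotime of 0.474, between fine cluster 4 at 0.460 and fine cluster 8 at 0.483, and its leftmost cells are nearly all at a score of 1.

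End point scores were low in most cells of fine cluster 9, with a highest value of 0.0289. The median was 6.21e-05 (5.63e-05 to 7.20e-05), near the 5.30e-05 (4.82e-05 to 6.24e-05) of fine cluster 7. Fine cluster 8 had 0.00195 (0.00168 to 0.00219). A score of 0.001 or more was given to 10 cells of fine cluster 9, 5.78% (2.81% to 10.4%), and to 201 cells of fine cluster 8, 74.4% (68.8% to 79.5%). Fewer cells reached it in fine clusters 7, 1.56% (0.509% to 3.61%), 4, 1.04% (0.337% to 2.399%), and 6, 0.617% (0.0748% to 2.21%), where the interval of fine cluster 7 overlapped that of fine cluster 9. Self-transition, usually the inferred tendency of a cell to stay in its own state, was intermediate in fine cluster 9. Its median of 0.349 (0.341 to 0.363) lay above those of fine clusters 6 (0.177), 7 (0.215) and 4 (0.321) and below that of fine cluster 8 (0.392), with intervals apart in all 4 cases.

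Fine cluster 9 had the highest unspliced share of its parent cluster. Unspliced UMIs made up a median of 9.58% of spliced plus unspliced UMIs (9.08% to 10.3%), against 8.05% in fine cluster 4, 7.85% in fine cluster 7, 7.82% in fine cluster 8 and 7.37% in fine cluster 6, all with intervals apart from its own. Over all 15 fine clusters it was the ninth highest, and no median lay between it and the 8.05% of fine cluster 4 below or the 10.0% of fine cluster 12 above. The 8 clusters above it, none of them in coarse cluster 3, reached 10.9%. In absolute terms its medians per cell, each taken separately, were 1721 unspliced (1622 to 1878) and 16140 spliced UMIs (15223 to 16900). Fine cluster 7, the deepest neighbour, had fewer unspliced UMIs, 1537.5 (1427 to 1589), and more spliced UMIs, 18002 (17227 to 18727). The 10 heterozygous cells of fine cluster 9 ran from 6.06% to 12.5% unspliced with a median of 8.53%, inside the range of the mutant cells, whose median was 9.85% (9.12% to 10.4%). Heterozygous medians were 8.15% in fine cluster 4, 7.90% in 6, 7.28% in 7 and 8.32% in 8 (6 cells). The heterozygous difference from these neighbours together was 0.686 percentage points, with bounds of -2.21 and 4.08. The larger difference thus rests on mutant cells.

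The unspliced share also varied more among the cells of fine cluster 9. Its middle 50% of cells spanned 4.07 percentage points, against 2.20 to 3.00 in the neighbours. A share of 12% or more was found in 44 of its cells, 25.4% (19.1% to 32.6%), and in 57 of the 1397 cells of the 4 neighbours, 4.08% (3.10% to 5.25%). Over all cells of the series the share was 12.6% (12.02% to 13.3%). Cells with more mitochondrial transcripts had more unspliced ones. In the 87 cells at or below the cluster's median of 1.49% mitochondrial UMIs the unspliced median was 8.99% (8.23% to 9.36%), and in the 86 cells above it 10.7% (9.99% to 11.8%). Each of the 4 neighbours showed the same order of medians, with overlapping intervals in fine clusters 7 and 8, and unspliced medians ran from 6.94% to 7.64% in the cells with fewer and 7.82% to 8.42% in the cells with more mitochondrial transcripts. The 8.99% of the cells of fine cluster 9 with fewer mitochondrial transcripts was above both medians of each neighbour, although its interval overlapped the upper one of fine clusters 4, 7 and 8.

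**Figure D4:**
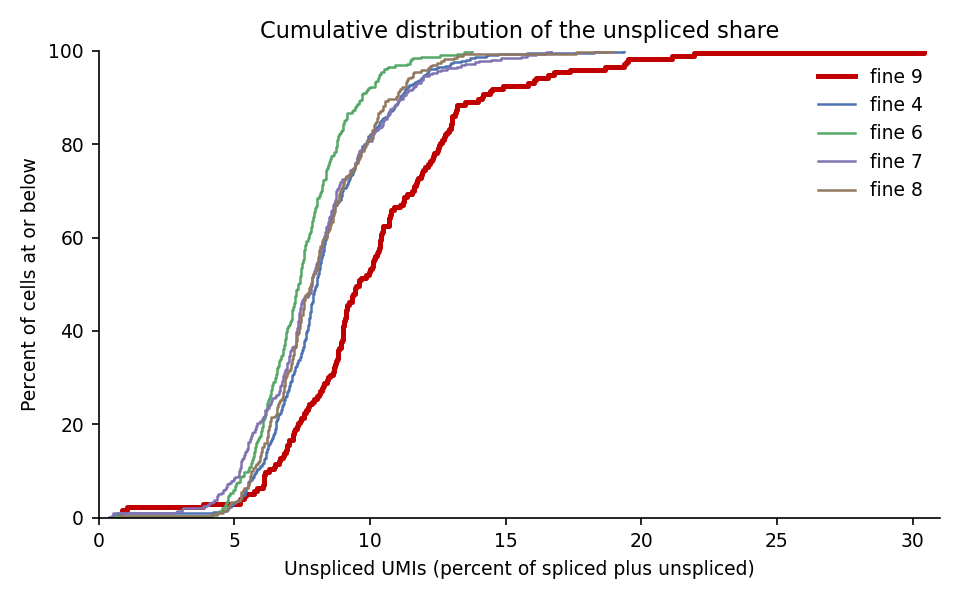
Cumulative percent of cells (y axis) by unspliced share of UMIs (x axis, percent) for fine clusters 9 (thick red), 4, 6, 7 and 8. The line of fine cluster 9 lies to the right of the others over most of its length, and 25.4% of its cells reach 12% or more.

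Depth and gene number were high in fine cluster 9. Its 17746 UMIs per cell were 1.39 times the median of fine cluster 4, 1.29 times that of fine cluster 6 and 1.19 times that of fine cluster 8, and 0.906 times that of fine cluster 7, which had 19591.5 UMIs (18633 to 20464). Its 3615 genes per cell were the second highest median of the 15 fine clusters, next to 3663 in fine cluster 11, and overlapped the 3570.5 (3503 to 3627) of fine cluster 7. Genes per cell rise with UMIs, so cells were compared within 4 depth bins that hold equal numbers of cells of coarse cluster 3. In bin 3, from 14443 to 18306 UMIs, 51 cells of fine cluster 9 had a median of 3541 genes (3500 to 3615). The neighbours had 3072 to 3326 genes there, and the highest of these, fine cluster 7, had an interval of 3266 to 3389. In bin 4, the deepest, the 74 cells of fine cluster 9 had 4035 genes (3975 to 4123) at a median of 21472 UMIs, and the neighbours together had 3821.5 (3786 to 3884) at 22202.5 UMIs. By neighbour, its interval in bin 4 lay apart from that of fine cluster 7, 3836 genes (3767 to 3880), and overlapped those of fine clusters 8 (3925, 3793 to 4035), 4 (3761, 3511 to 4132) and 6 (3708, 3492 to 4056). In bin 1, the shallowest, its 30 cells had 2576 genes (2472 to 2896), and the interval overlapped that of the neighbours together, 2475.5 (2453 to 2517).

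The unspliced and root cell score differences were present within depth bins too. In bin 3 fine cluster 9 had 9.99% unspliced UMIs (9.12% to 10.4%) and the neighbours together 7.82% (7.55% to 8.04%). In bin 4 the values were 9.08% (8.70% to 10.1%) and 7.70% (7.39% to 8.02%), and in bin 1 they were 11.9% (8.27% to 13.0%) and 7.88% (7.65% to 8.16%). By neighbour, the bin 1 interval of fine cluster 9 overlapped those of fine clusters 4 (7.87% to 8.39%), 7 (5.58% to 9.79%) and 8 (7.21% to 8.42%). The median root cell score of fine cluster 9 lay between 0.742 and 0.791 in the 4 bins. That of the neighbours together lay between 0.0424 and 0.0544. Mitochondrial UMIs made up 1.49% in fine cluster 9 (1.35% to 1.65%) and 1.64% in the neighbours together (1.59% to 1.67%), with overlapping intervals.

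**Figure D5:**
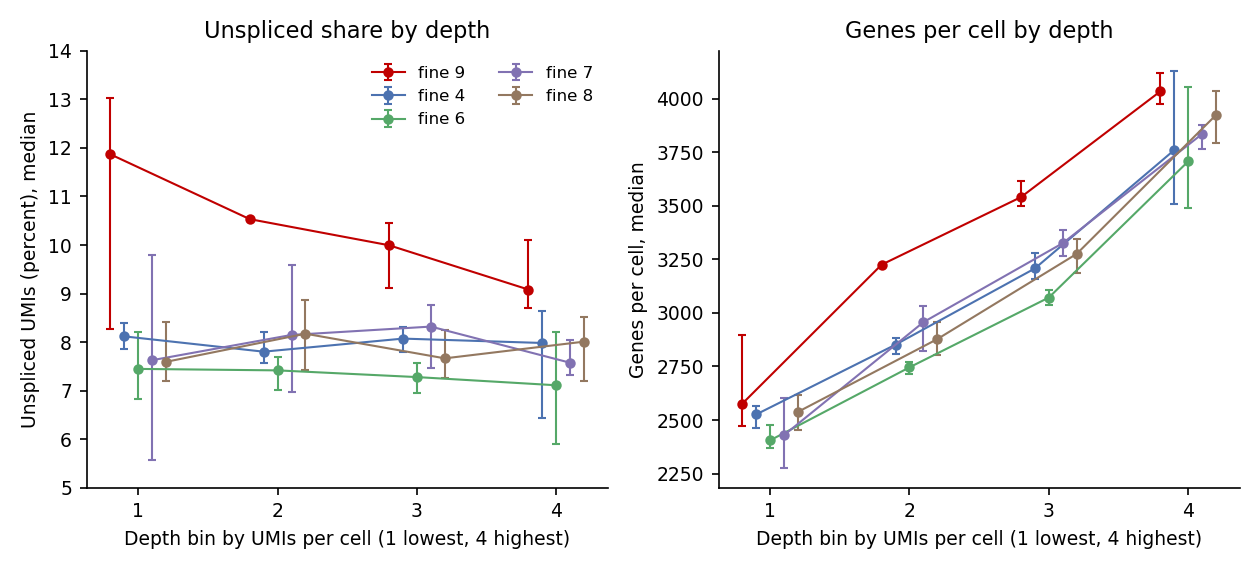
Median unspliced share (left, percent of UMIs) and median genes per cell (right) by depth bin (UMIs per cell, bin 1 the lowest) for fine clusters 9 (red), 4, 6, 7 and 8, with exact 95% intervals where a point rests on at least 20 cells. Fine cluster 9 has the highest median of both measures in every bin; in bin 2 it has 18 cells and no interval.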

How the data were processed

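The authors deposited 2 tables with 1 row per cell and the genotype in each row. STARsolo, Scanpy and the build danRer11 are named in the submitters' processing notes. For versions, cell filters, doublet treatment, clustering and velocity, nothing is given in the sources used here. Genes per cell are counts as deposited. Total UMIs were deposited by the authors as a natural log (of the sum plus 1), per the file headers; inverting it gave values within 0.0614 of a whole number. Mitochondrial values are deposited as percent of UMIs. Root cell, end point, self-transition and pseudotime values are the authors' velocity scores, per the file headers. Initial spliced and unspliced sizes are whole numbers per cell, read here as UMIs, and their sum was 102% of total UMIs in the median cell of fine cluster 9.

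Members were all cells with fine cluster number 9, compared with fine clusters 4, 6, 7 and 8. Shares have exact (Clopper-Pearson) 95% intervals, and medians have exact 95% order-statistic intervals where at least 20 cells were measured. The limit beside a share of 0 is 3 cells of the total. No p-value was computed over cells, which are not replicates. Cells could not be thinned to 1 depth without gene counts, so 4 bins of UMIs with equal numbers of coarse cluster 3 cells were used, and doublets were only approximated by dropping the 5% of cells with the most UMIs. Named items were fine cluster 9 and its neighbours, other clusters being given as ranges or ranks. Members, measures and alternatives were chosen with earlier results of these data known. Python 3.11.15, scipy 1.17.1 and pandas 2.3.3 were used.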

Additional observations from a re-analysis of the deposited data

How the results depend on the processing

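No paired analysis was possible because each genotype had 1 library, and no library could be left out for the same reason; each genotype was instead taken alone. Differences below are fine cluster 9 minus, and ratios fine cluster 9 over, fine clusters 4, 6, 7 and 8 together. Of 114 values under the alternatives, 82 stayed inside the interval or bounds of the reported value, 25 moved outside and 7 turned direction. The other deposited table holds identical cells, so its values could not change, and they are among the 82. Alternatives with 1 neighbour or 1 genotype alone change the cells compared, not the processing. The counts therefore do not measure how robust the results are to processing.

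The ratio of library shares, 16.1, was 6.84 outside coarse cluster 1, by the change of denominator. Outside coarse clusters 1 and 4 it was 3.98, where 9 of the 10 heterozygous cells of fine cluster 9 remained. It was 22.3 with the minimum of 14443 UMIs and 25.2 with a minimum of 3045 genes, both inside its wide bounds. The cause was not tested. The ratio within coarse cluster 3, 1.53, stayed inside its bounds throughout. The root cell score difference, 0.726, was 0.9505 in heterozygous cells alone and 0.628 with means. The share at a root cell score of 0.9 or more, 28.9%, was 80.9% at a cut of 0.5, 43.9% at 0.8 and 90.0% in the 10 heterozygous cells. The pseudotime difference, 0.0144, was 0.0290 against fine cluster 6 and reversed to -0.00880 against fine cluster 8. The end point difference, 1.29e-05, was 3.45e-05 against fine cluster 4 and 3.00e-05 against fine cluster 6. It reversed to -5.82e-04 with means, -0.00189 against fine cluster 8, -6.55e-06 in cells with at least 14443 UMIs and -3.25e-09 within depth bins, so its direction is not settled; the cause was not tested. The self-transition difference, 0.0567, was 0.0860 in heterozygous cells, 0.0285, 0.172 and 0.134 against fine clusters 4, 6 and 7, and reversed to -0.0431 against fine cluster 8. The unspliced difference, 1.78 percentage points, was 0.686 in heterozygous cells and stayed inside its bounds under every other alternative run. The UMI ratio, 1.25, was 1.14 with means, 1.39 against fine cluster 4, 1.05 in cells with at least 14443 UMIs, and reversed to 0.906 against fine cluster 7. The minimum of 14443 UMIs cuts the very measure compared, so the 1.05 cannot decide how large the depth difference is. The gene ratio, 1.21, was 1.30, 1.01 and 1.14 against fine clusters 6, 7 and 8, 1.11 above the UMI minimum, 1.08 within depth bins and 1.09 in a window of 15000 to 20000 UMIs that was added once the data had been seen. The mitochondrial difference, -0.148 percentage points, was -0.408 in heterozygous cells.

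The 10 heterozygous cells limit every value of that genotype, and the score of 1 is a ceiling that hides differences above it.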

Other observations

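A few cells of fine cluster 9 stood far from the rest in splicing. In 4 of its cells, between 0.745% and 1.03% of UMIs were unspliced, while the lowest decile of the cluster was 6.30%. These cells were mutant, as was 94.2% of the cluster. All 4 had a root cell score of 1, pseudotimes from 0.415 to 0.438, mitochondrial UMIs of 0.199% to 0.382% and a median of 8847 UMIs. Such cells, under 2% unspliced, made up 2.31% of fine cluster 9 (0.633% to 5.81%), 0.716% of its 4 neighbours together (0.344% to 1.31%) and 1.11% of all cells (0.916% to 1.33%), with overlapping intervals. In the neighbours such cells had root cell scores from 0.0256 to 1 in 10 cells, and the 5 of them in fine cluster 4 had a median of 1 and a lowest score of 0.649. Of the 116 such cells in all clusters, 79 were heterozygous, beside 5207 of the 10469 cells of the series. Without such cells, an alternative chosen after seeing the data, the share of fine cluster 9 at 0.9 or more was 27.2%.

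At the other end, 13 cells of fine cluster 9 had 15% or more unspliced UMIs, with a highest value of 30.4%. These 13 cells were mutant too, beside 94.2% of the cluster. They were shallower than the cluster, with a median of 11341 UMIs, and had a median of 1.79% mitochondrial UMIs. Their root cell scores spread from 0.154 to 1 around a median of 0.778. Such cells made up 7.51% of fine cluster 9 (4.06% to 12.5%), 0.716% of its neighbours (0.344% to 1.31%) and 3.62% of all cells (3.27% to 3.996%).

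The 10 cells of fine cluster 9 with an end point score of 0.001 or more included 6 of its 33 cells with a root cell score under 0.5 and 2 of its 38 cells at the top score. Both of these top-score cells were heterozygous, and 1 was the cell placed in coarse cluster 4. Mutant cells at the top score reached an end point score of 0.000627 at most. The depth of the 10 cells ran from 5730 to 30108 UMIs, with a median of 22574 UMIs.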
